A study of Oryza sativa with 48 samples.

Results

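Dehydrins and the LEA protein OsLEA3 were followed in rice seedlings moved into salt. The 7 genes were chosen by their identifiers, out of 35667 identifiers in the count table. They were RAB16A (Os11g0454300), RAB16B (Os11g0454200), RAB16C (Os11g0454000) and RAB16D (Os11g0453900), with LIP9 (Os02g0669100), RAB25 (Os01g0702500) and OsLEA3 (Os05g0542500). RNA was sequenced from the root and from leaf 2 of seedlings grown in hydroponics for 11 days, of wild type Kitaake plants (WT) and of plants whose genotype is labelled aoc. Each tissue was taken before salt (0 h) and after 1, 6 and 72 h in 100 mM NaCl, so that the 48 libraries formed 16 groups of 3, each library from 3 plants. The name aoc stands for allene oxide cyclase, an enzyme of jasmonate synthesis, but the labels do not say how aoc was made or whether it is 1 line. The 48 libraries include no untreated plants at 1, 6 or 72 h, so that a change from 0 h also holds the hour of day and, at 72 h, the age of the plants.

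LEA (late embryogenesis abundant) proteins are very hydrophilic proteins that accumulate in maturing seeds and in vegetative tissue losing water, where they are held to protect proteins and membranes. Dehydrins are the group of LEA proteins with lysine-rich repeats, and OsLEA3 belongs to another group. The name RAB means responsive to abscisic acid (ABA), the hormone that carries the water-deficit signal, and RAB16 promoters have long been used as reporters of ABA signalling in rice. LIP9 is a dehydrin best known as a cold-induced target of DREB1 transcription factors. The RAB16 genes are closely similar in sequence and lie together on chromosome 11. In the RefSeq table RAB16D and RAB16C are neighbours with 0 entries between them, 2 entries (an lncRNA and a pseudogene) separate RAB16C from RAB16B, and the entry after RAB16B is RAB21, an older name of RAB16A. How reads that match several of these genes were counted is not given, so the division of reads among RAB16A to D is uncertain.

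Levels are given as CPM, counts scaled to a library total of 1 M with TMM factors, and are compared between libraries, not between genes. Total counts were 28.6 M to 71.7 M per root library (median 32.0 M) and 29.9 M to 41.0 M per leaf library (median 32.7 M). A set of 4 leaf marker identifiers summed to 6438 to 38290 CPM in leaf and 223 to 3537 CPM in root. A set of 4 root markers summed to between 3033 and 7300 CPM in root libraries and to between 10.9 and 176 CPM in those of leaf, with 1 of the root markers near 0 in both tissues. The identifier taken as allene oxide cyclase lay at 112 to 246 CPM in WT root and at 36.3 to 48.5 CPM in aoc root, and in leaf the aoc libraries were below those of WT at each of the 4 hours. All 7 genes passed the filter on low counts in both tissues. Changes were tested with edgeR's quasi-likelihood test with Benjamini-Hochberg adjustment over all identifiers of a tissue, and a gene was called at an adjusted p under 0.05. RNA of whole organs was measured, in which fewer cells of a type and less RNA per cell cannot be told apart.

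Before the results, 4 libraries have to be named because several of the genes stood there at 1 CPM or more and at least 8-fold above both other libraries of their group. In root aoc 0 h replicate 3 this held for 5 of the 7 genes, against 0.294% of all identifiers tested, and in root aoc 72 h replicate 2 for 6 genes, against 0.252%. In leaf aoc 0 h replicate 3 it held for 6 genes, against 1.51%, and in leaf WT 1 h replicate 3 for 6 genes, against 0.621%. LIP9 was among these genes in none of the 4. Leaf aoc 72 h replicate 3 held 3 such genes, against 0.966%, leaf aoc 1 h replicate 2 held 3, against 0.0781%, and leaf WT 0 h replicate 2 held 1, OsLEA3, against 0.0658%. Root markers summed to 176 CPM in leaf aoc 0 h replicate 3 and to 34.1 and 58.2 CPM in the other libraries of its group. In leaf WT 1 h replicate 3 they summed to 67.9 CPM, between the 63.1 and 166 CPM of the others. Leaf markers were lowest of their groups in root aoc 0 h replicate 3 (443 CPM) and root aoc 72 h replicate 2 (379 CPM). The part of root RNA in the leaf aoc 0 h values was not tested. Values without these libraries stand beside the results that they move most. The libraries were picked for high values of the same genes, so fits without them have a smaller spread by construction. Their calls and p values are no independent support, and the shares of all identifiers in those fits are not given.

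**Figure D1:**
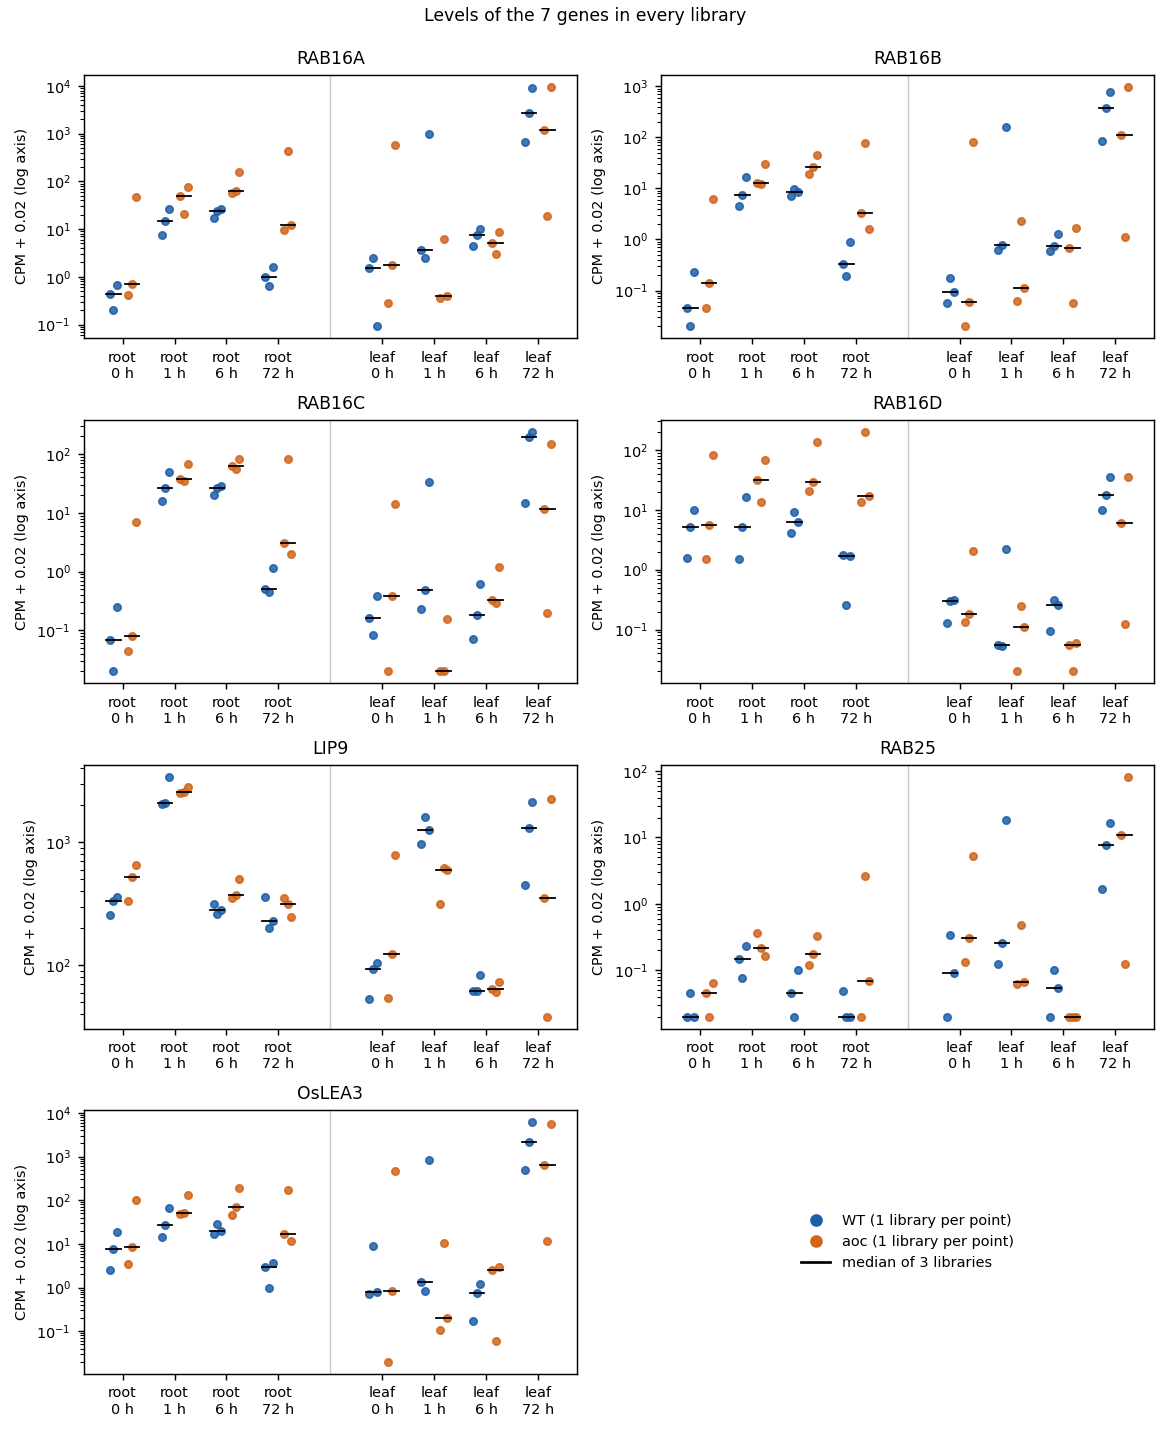
CPM plus 0.02 on a log axis for each of the 7 genes, with 1 point per library, WT in blue and aoc in orange, root on the left and leaf on the right of each panel, and a line at the median of 3 libraries. In WT root, RAB16A, B and C were high at 1 and 6 h, LIP9 was high at 1 h, and in leaf the highest points of the RAB16A, RAB16B and OsLEA3 panels stood at 72 h.

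In WT root, RAB16A, RAB16B and RAB16C rose from near 0 within 1 h of salt, were still high at 6 h and at 72 h read below every library of 1 and 6 h. RAB16C read 0.0490, 0 and 0.232 CPM at 0 h and 15.9, 26.4 and 49.3 CPM at 1 h. It then read 19.8, 26.6 and 29.1 CPM at 6 h and 0.476, 0.426 and 1.12 CPM at 72 h. Every library at 1 and 6 h lay above every library at 0 and 72 h. On the log2 scale RAB16C rose by 8.34 ± 1.77 (SE, n = 3 and 3, edgeR adjusted p = 0.00119) at 1 h and by 8.08 ± 1.77 (edgeR adjusted p = 0.00283) at 6 h, and between 6 and 72 h it fell by 5.23 ± 1.38 (edgeR adjusted p = 0.0153). The fall to 72 h was not called without root WT 72 h replicate 1 (edgeR adjusted p = 0.0639) or replicate 2 (0.0522).

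RAB16B followed the same course with 0.0245, 0 and 0.206 CPM at 0 h, 4.48, 7.48 and 16.5 CPM at 1 h, 7.02, 9.83 and 8.63 CPM at 6 h and 0.308, 0.170 and 0.857 CPM at 72 h. Its rises were 6.94 ± 1.82 at 1 h and 6.79 ± 1.83 at 6 h on the log2 scale (edgeR adjusted p = 0.00611 and 0.0110). RAB16A read 0.417, 0.177 and 0.645 CPM at 0 h, 7.49, 15.1 and 26.4 CPM at 1 h, 17.3, 24 and 26.4 CPM at 6 h and 0.952, 0.617 and 1.58 CPM at 72 h. For both genes the 1 and 6 h libraries were all above those of 0 and 72 h. RAB16A rose by 5.32 ± 1.71 at 1 h and by 5.80 ± 1.73 at 6 h (edgeR adjusted p = 0.0215 and 0.0194). These RAB16A calls were the least firm of the set: the 1 h call was lost without any 1 of the 0 h libraries or without root WT 1 h replicate 3 (edgeR adjusted p = 0.0548 to 0.0772), and the 6 h call without any 1 of the 0 h libraries (0.0598 to 0.0743). The differences of RAB16A and RAB16B between 72 and 6 h were -4.44 ± 1.54 and -4.29 ± 1.44 and were not called (edgeR adjusted p = 0.0588 and 0.0506).

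RAB16D, the gene at the far end of the chromosome 11 group, was present before salt in WT root and showed no called change at any hour. Its levels were 1.55, 5.15 and 9.73 CPM at 0 h, 1.47, 5.17 and 16.3 CPM at 1 h, 4.13, 9.09 and 6.14 CPM at 6 h and 1.74, 0.234 and 1.66 CPM at 72 h. The libraries of 0, 1 and 6 h overlapped throughout. The difference at 1 h was 0.52 ± 1.26 on the log2 scale (edgeR adjusted p = 0.791), and without root WT 1 h replicate 3 it was -0.68.

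OsLEA3 was likewise present in untreated WT root, at 2.53, 7.61 and 18.5 CPM. It read 14.3, 27.4 and 65.6 CPM at 1 h, 17.1, 28.3 and 19.6 CPM at 6 h and 2.97, 0.979 and 3.69 CPM at 72 h. The 1 h libraries overlapped those of 0 h through the highest 0 h library. Its difference at 1 h of 1.93 ± 1.11 was not called (edgeR adjusted p = 0.196). After leaving out the 2 root aoc libraries that stand apart it was 1.94 with an edgeR adjusted p of 0.0442. RAB25 was close to absent from WT root, with 1 read in the 3 libraries at 0 h, 23 reads at 1 h, 4 reads at 6 h and 1 read at 72 h, and its highest WT root library held 0.210 CPM.

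LIP9 behaved differently from the RAB16 genes: it was well expressed in untreated root, rose at 1 h and overlapped its starting level by 6 h. In WT root it read 256, 335 and 363 CPM at 0 h, 2065, 2110 and 3420 CPM at 1 h, 314, 261 and 281 CPM at 6 h and 357, 200 and 231 CPM at 72 h. The 1 h libraries were far above all others, while those of 0, 6 and 72 h overlapped. The rise was 3.02 ± 0.26 on the log2 scale (edgeR adjusted p = 7.3e-08) and from 1 to 6 h LIP9 fell by 3.14 ± 0.26 (edgeR adjusted p = 8.1e-08). At 6 h it differed from 0 h by -0.12 ± 0.24 and at 72 h by -0.23 ± 0.24, neither of them called (edgeR adjusted p = 0.771 and 0.532). Neither the rise nor the fall lost its call under any alternative setting or with any 1 library left out.

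Counted over the 7 genes, WT root had 4 called higher at 1 h, where 17.5% of all identifiers tested were called higher, and 3 at 6 h, against 13.0%. At 72 h edgeR called 0, against 18.9% called in either direction, and DESeq2 called 0. At an unadjusted p under 0.05 there were 0 of the 7, against 8938 of 26195 identifiers. From 1 to 6 h LIP9 was the 1 gene called lower, against 18.0%, and from 6 to 72 h RAB16C was, against 8.26%. For this last step 4 genes (RAB16A, B and C and OsLEA3) were called lower by DESeq2 and also by edgeR on the 2 groups alone.

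In aoc root RAB16C and LIP9 rose at 1 h and RAB16B and RAB16C at 6 h, over a 0 h group of uneven libraries. RAB16C read 0.0253, 0.0617 and 6.90 CPM at 0 h, 37.8, 34.9 and 67.7 CPM at 1 h, 61.6, 55.3 and 83.5 CPM at 6 h and 3.00, 81.6 and 1.99 CPM at 72 h. The high value at 0 h is replicate 3 and the high value at 72 h is replicate 2. At 1 and 6 h all libraries lay above all of 0 h, with rises of 4.34 ± 1.24 and 4.84 ± 1.26 (edgeR adjusted p = 0.0105 and 0.00670). Without root aoc 0 h replicate 3 the RAB16C rises were 10.08 and 10.57. On the compared groups alone the 1 h call was lost (edgeR adjusted p = 0.0625).

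RAB16B read 0.0253, 0.123 and 6.20 CPM at 0 h, 13, 12.1 and 29.5 CPM at 1 h, 19.1, 26.6 and 44.3 CPM at 6 h and 3.35, 78.6 and 1.57 CPM at 72 h. Its rise at 6 h of 3.83 ± 1.26 was called (edgeR adjusted p = 0.0254) and lost its call without root aoc 0 h replicate 1 (edgeR adjusted p = 0.0737) or replicate 2 (0.0913), without root aoc 6 h replicate 3 (0.0577), and on the compared groups alone (0.0805). Without root aoc 0 h replicate 3 it was 8.72. The difference at 1 h of 3.12 ± 1.23 was not called (edgeR adjusted p = 0.0569), but was with the replicate number as a block (3.55, edgeR adjusted p = 0.0235). RAB16A read 0.405, 0.678 and 46.2 CPM at 0 h and 49.1, 20.8 and 74.5 CPM at 1 h, where replicate 3 of 0 h overlaps the 1 h libraries. Its differences of 1.67 ± 1.27 at 1 h and 2.59 ± 1.30 at 6 h were not called (edgeR adjusted p = 0.337 and 0.134).

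LIP9 in aoc root rose at 1 h as in WT, with 336, 525 and 651 CPM at 0 h, 2547, 2563 and 2852 CPM at 1 h, 354, 371 and 504 CPM at 6 h and 353, 314 and 247 CPM at 72 h. The rise was 2.46 ± 0.26 (edgeR adjusted p = 7.4e-07), and from 1 to 6 h LIP9 fell by 2.71 ± 0.26 (edgeR adjusted p = 5.2e-07). Its 1 h libraries stood clear of all others here too. RAB16D read 1.47, 5.64 and 81.2 CPM at 0 h and OsLEA3 3.52, 8.45 and 104 CPM, replicate 3 being the highest for each. At 6 h RAB16D read 20.3, 29.1 and 137 CPM and OsLEA3 46.2, 70.1 and 190 CPM, and neither difference was called (1.12 ± 1.21 and 1.46 ± 1.07, edgeR adjusted p = 0.506 and 0.313).

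Over the 7 genes, aoc root had 2 called higher at 1 h (LIP9 and RAB16C), against 18.1% of all identifiers, and 2 at 6 h (RAB16B and RAB16C), against 16.7%. Both counts rest on root aoc 0 h replicate 3: without that library 5 were called at 1 h and 5 at 6 h, and without the 2 root aoc libraries that stand apart 7 and 6. In that last setting RAB16A rose by 6.52 at 1 h and OsLEA3 by 3.71 (edgeR adjusted p = 1.2e-05 and 0.00480). Root aoc 0 h replicate 3 was picked for high values of these genes, so leaving it out enlarges their rise and narrows their spread by construction. These counts and p values are therefore no independent support for a rise.

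At 72 h aoc root had 3 genes called higher than at 0 h, against 9.46% of all identifiers, and these were RAB16B (3.73 ± 1.26), RAB16C (3.64 ± 1.21) and RAB25 (edgeR adjusted p = 0.0435, 0.0411 and 0.02). RAB25 had 3 reads in the 3 libraries at 0 h and 105 reads at 72 h, 35.3 times as many per count sequenced (95% counting interval 11.8 to 174). Its 72 h libraries read 0, 2.59 and 0.0498 CPM. The high value is root aoc 72 h replicate 2, and without that library the differences were 0.19 for RAB16B, 0.06 for RAB16C and 0.06 for RAB25 (edgeR adjusted p = 0.930, 0.976 and 0.985). Each of the 3 calls was lost also without root aoc 0 h replicate 1 or replicate 2 (edgeR adjusted p = 0.0560 to 0.144). Without root aoc 0 h replicate 3, 6 genes were called. From 1 to 6 h 1 gene was called lower, LIP9, against 17.8%. From 6 to 72 h edgeR and DESeq2 called 0, against 9.27% called in either direction. At an unadjusted p under 0.05 there were 0 of the 7, against 6446 of 26195 identifiers. Without the 2 root aoc libraries that stand apart edgeR called 4 genes for this step, with 5 at an unadjusted p under 0.05. RAB16C read 3.00 and 1.99 CPM in the remaining 72 h libraries, against 55.3 to 83.5 CPM at 6 h.

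**Figure D2:**
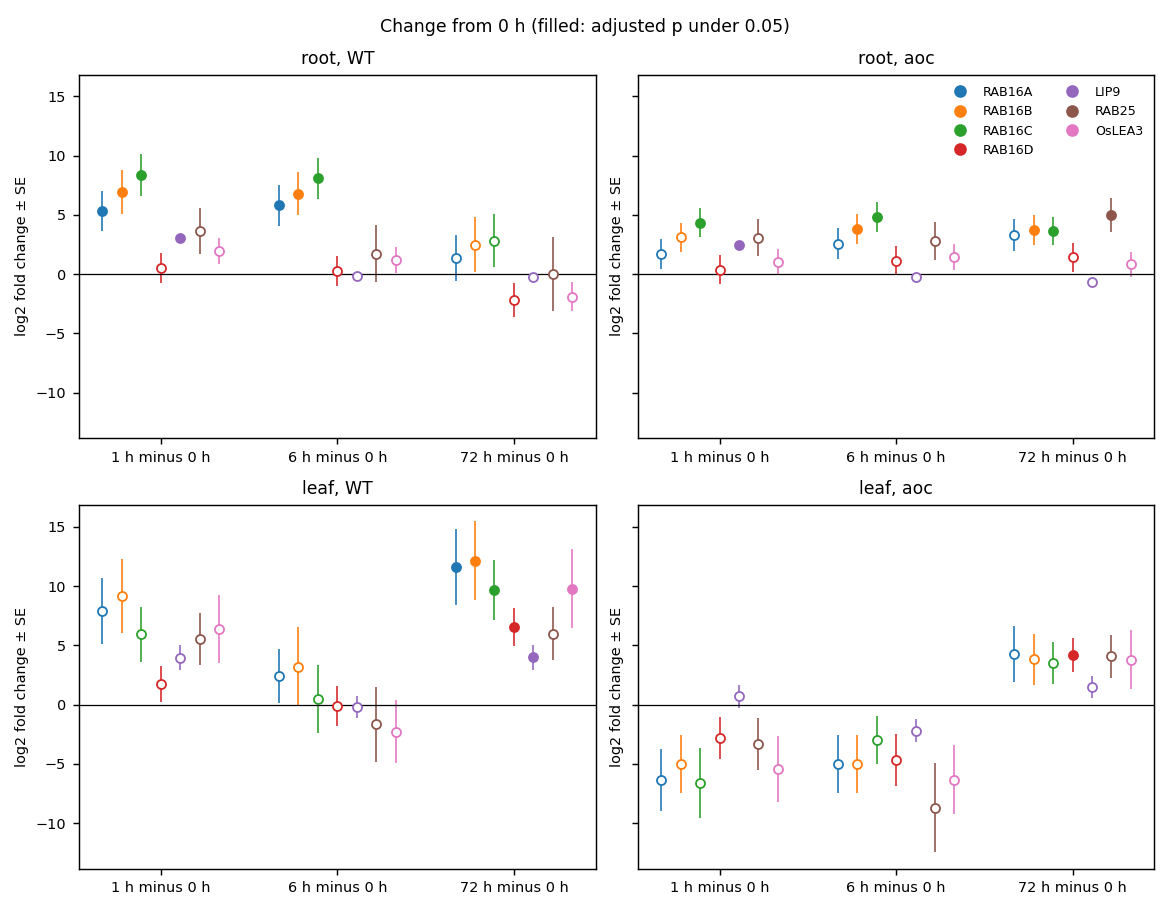
Log2 fold change from 0 h with its SE for each gene at 1, 6 and 72 h, in root (top) and leaf (bottom) of WT (left) and aoc (right), with filled points at an edgeR adjusted p under 0.05. In WT root RAB16A, B and C were called at 1 and 6 h and LIP9 at 1 h, and in WT leaf 6 of the 7 genes were called at 72 h.

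In WT leaf 6 of the 7 genes rose by 72 h and had their highest library there, while the highest library of RAB25 stood at 1 h. RAB16A read 1.54, 2.42 and 0.0721 CPM at 0 h, 3.67, 2.40 and 972 CPM at 1 h, 4.35, 7.38 and 9.81 CPM at 6 h and 654, 2744 and 8942 CPM at 72 h. The 972 CPM is replicate 3 of 1 h, the library that stands apart, and it overlaps the range of 72 h. From 0 to 72 h RAB16A rose by 11.59 ± 3.21 on the log2 scale (edgeR adjusted p = 0.0130), a call lost without leaf WT 0 h replicate 3 (0.0558).

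OsLEA3 read 0.683, 8.75 and 0.757 CPM at 0 h and 482, 2162 and 6222 CPM at 72 h, without overlap. Its rise of 9.78 ± 3.31 was called (edgeR adjusted p = 0.0339), with the call lost without any 1 of the 0 h libraries or without leaf WT 72 h replicate 2 or 3 (0.0504 to 0.111). RAB16B read 0.0359, 0.157 and 0.0721 CPM at 0 h and 84.3, 384 and 781 CPM at 72 h, and it rose by 12.12 ± 3.33 (edgeR adjusted p = 0.0126, and 0.0538 without leaf WT 0 h replicate 3). RAB16C went from 0.144, 0.0630 and 0.360 CPM to 14.7, 194 and 241 CPM, a rise of 9.66 ± 2.53 (edgeR adjusted p = 0.00972).

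RAB16D was low in WT leaf until 72 h. It read 0.108, 0.283 and 0.288 CPM at 0 h and 9.91, 17.4 and 35.4 CPM at 72 h, a rise of 6.52 ± 1.62 (edgeR adjusted p = 0.00744). RAB25 read 0, 0.315 and 0.0721 CPM at 0 h and 1.66, 7.56 and 16.8 CPM at 72 h. Its groups did not overlap, but its difference of 5.99 ± 2.22 was not called (edgeR adjusted p = 0.0527). It was called by DESeq2 (0.00902), by edgeR on the compared groups alone (0.0412) and without leaf WT 72 h replicate 1 (0.0401).

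LIP9 in WT leaf had 2 high hours, 1 h and 72 h. It read 52.9, 93.8 and 104 CPM at 0 h, 969, 1596 and 1258 CPM at 1 h, 61.6, 62.0 and 82.7 CPM at 6 h and 450, 1299 and 2127 CPM at 72 h. The libraries of 1 and 72 h were all above those of 0 and 6 h. At 72 h it rose by 3.98 ± 1.06 (edgeR adjusted p = 0.0107). The difference at 1 h was of like size, 3.94 ± 1.06, and was not called (edgeR adjusted p = 0.0777). It was called by DESeq2 (0.000658) and, in edgeR, on the compared groups alone (0.00628) and with the leaf 72 h libraries left out (0.00880), a setting chosen after seeing the data. From 1 to 6 h LIP9 fell by 4.18 ± 1.07 (edgeR adjusted p = 0.00744), and from 6 to 72 h it rose by 4.21 ± 1.07 (edgeR adjusted p = 0.00800).

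For the other 6 genes in WT leaf at 1 h, replicate 3 was far above replicates 1 and 2. OsLEA3 read 1.34, 0.812 and 846 CPM, RAB16B 0.600, 0.745 and 161 CPM and RAB25 0.106, 0.237 and 18.5 CPM. At 1 h edgeR called 0 of the 7 genes, against 1.28% of all identifiers called in either direction, and DESeq2 called 3. At an unadjusted p under 0.05 there were 6 of the 7, against 3259 of 24317 identifiers. At 6 h edgeR called 0, against 29.2%, and DESeq2 called 0, while edgeR on the 2 groups alone called 1. At an unadjusted p under 0.05 there were 0 of the 7, against 9620 of 24317 identifiers. RAB16A to D, RAB25 and OsLEA3 were under 10 CPM in every 6 h library. Every 6 h library still lay above every 0 h library for RAB16A (lowest 4.35 against highest 2.42 CPM) and RAB16B (0.582 against 0.157 CPM). The other genes overlapped between 0 and 6 h.

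At 72 h 6 of the 7 genes were called higher than at 0 h in WT leaf, against 15.0% of all identifiers, with 3 to 7 called as single libraries were left out, 3 being the count without leaf WT 0 h replicate 3. Compared with 6 h all 7 were called higher, against 16.3%, with 3 to 7 as single libraries were left out. The count was 3 without any 1 of the 6 h libraries or without leaf WT 72 h replicate 3, where RAB16A, RAB16B, RAB25 and OsLEA3 lost their calls (edgeR adjusted p = 0.0538 to 0.105). From 1 to 6 h 2 were called lower, LIP9 and RAB25, against 12.3%. The RAB25 fall of 7.19 ± 2.52 (edgeR adjusted p = 0.0437) was -2.03 without leaf WT 1 h replicate 3 (0.672) and was lost also without any 1 of the 6 h libraries (0.103 to 0.139).

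In aoc leaf the 3 libraries of 72 h differed from each other by orders of magnitude. RAB16A read 1220, 18.5 and 9710 CPM there, OsLEA3 628, 11.7 and 5651 CPM and LIP9 353, 38.3 and 2270 CPM. Replicate 3 was the highest and replicate 2 the lowest for each of the 7 genes. At 0 h the same genes were low in replicates 1 and 2 and high in replicate 3, with 0.264, 1.74 and 578 CPM for RAB16A, 0, 0.808 and 462 CPM for OsLEA3 and 53.8, 124 and 790 CPM for LIP9.

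Of the 7 genes, RAB16D was the 1 called higher at 72 h than at 0 h in aoc leaf, against 15.7% of all identifiers, with 0.113, 0.162 and 2.07 CPM at 0 h, 6.04, 0.105 and 35.8 CPM at 72 h and a rise of 4.20 ± 1.43 (edgeR adjusted p = 0.0328). The call did not hold without leaf aoc 0 h replicate 1 (0.104) or replicate 2 (0.118) or leaf aoc 72 h replicate 3 (0.294). Without leaf aoc 0 h replicate 3 all 7 genes were called, with RAB16A at 11.87 and OsLEA3 at 12.39 (edgeR adjusted p = 0.0170 and 0.0291). With the replicate number as a block 4 were called: RAB16D, RAB16B (5, edgeR adjusted p = 0.0446), RAB16C (3.99, 0.0201) and RAB25 (4.50, 0.0274). For LIP9 the difference of 1.48 ± 0.96 was not called (edgeR adjusted p = 0.249), and without leaf aoc 72 h replicate 3 it was -0.73.

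From 6 to 72 h all 7 genes were called higher in aoc leaf, against 12.0% of all identifiers. RAB16A read 5.10, 2.98 and 8.65 CPM at 6 h, and its rise was 9.31 ± 2.93 (edgeR adjusted p = 0.0294). LIP9 went from 64.6, 60.5 and 72.6 CPM at 6 h to the values above, a rise of 3.70 ± 1.05 (edgeR adjusted p = 0.0172), although replicate 2 of 72 h lay below all 6 h libraries. RAB25 had no read in aoc leaf at 6 h and stood at least 827-fold higher at 72 h, with 3 counts over the 6 h group as the floor. Its 72 h libraries read 10.7, 0.105 and 82.1 CPM. Without leaf aoc 72 h replicate 3 the bound was 144-fold. RAB16D had 2 reads at 6 h and 1091 reads at 72 h, 536 times as many per count sequenced (95% counting interval 148 to 4429). Of the 72 h reads 923 came from replicate 3, against 165 and 3 in the others, and without it the ratio was 121 (95% counting interval 32.9 to 1004). On the 2 groups alone edgeR called 0, and as single libraries were left out 1 to 7 were called: without leaf aoc 72 h replicate 3 the adjusted p values of the genes that were lost were 0.0680 to 0.311, and without a 6 h library 0.0504 to 0.119.

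At 1 h aoc leaf read 314, 617 and 600 CPM for LIP9, 0.338, 6.31 and 0.368 CPM for RAB16A and 0.0844, 10.3 and 0.184 CPM for OsLEA3. RAB16C had 3 reads in the 3 libraries. edgeR called 0 of the 7 genes against 0 h at 1 h, where 0.654% of all identifiers were called in either direction, and DESeq2 called 2. At an unadjusted p under 0.05 there were 2 of the 7, against 3130 of 24317 identifiers. At 6 h edgeR called 0, against 35.6%, and DESeq2 called 6. At an unadjusted p under 0.05 there were 4 of the 7, against 10979 of 24317 identifiers. Each of the 7 genes had a lower mean at 6 h than at 0 h. RAB16A averaged 5.58 CPM against 193 CPM and OsLEA3 1.80 CPM against 154 CPM, with the 578 and 462 CPM of leaf aoc 0 h replicate 3 in the 0 h means. By median the direction was not shared. RAB16A stood at 5.10 CPM at 6 h against 1.74 CPM at 0 h, RAB16B at 0.655 against 0.0404 CPM and OsLEA3 at 2.45 against 0.808 CPM. The medians of RAB16C, RAB16D, LIP9 and RAB25 were lower at 6 h. Without the 2 leaf libraries that stand apart edgeR called 0 at 6 h, with 0 at an unadjusted p under 0.05. From 1 to 6 h LIP9 fell by 2.89 ± 1.01 (edgeR adjusted p = 0.0394) as the 1 gene called lower, against 12.3%, and the call was lost without leaf aoc 1 h replicate 2 or 3 or any 1 of the 6 h libraries (0.0855 to 0.107).

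The genotypes differed by call at 1 of the 8 tissue and hour pairs. In root at 72 h 6 of the 7 genes were called higher in aoc than in WT, against 1.85% of all identifiers. RAB16A read 9.60, 440 and 12.2 CPM in aoc and 0.952, 0.617 and 1.58 CPM in WT, RAB16D read 13.3, 202 and 16.8 CPM against 1.74, 0.234 and 1.66 CPM, and OsLEA3 read 16.9, 168 and 11.9 CPM against 2.97, 0.979 and 3.69 CPM. For each of these genes every aoc library was above every WT library. The differences were 7.24 ± 1.68 for RAB16A, 6.06 ± 1.57 for RAB16D and 4.73 ± 1.27 for OsLEA3 (edgeR adjusted p = 0.0249, 0.0415 and 0.0487). RAB16B and RAB16C were higher by 6.02 ± 1.49 and 5.46 ± 1.39 (edgeR adjusted p = 0.0340 and 0.0390). RAB25 was called (edgeR adjusted p = 0.0427) on 105 reads in aoc against 1 in WT, 108 times as many per count sequenced (95% counting interval 19.0 to 4319). LIP9 was the exception at 0.22 ± 0.24 (edgeR adjusted p = 0.741), with overlapping libraries.

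The size of this difference depended most on root aoc 72 h replicate 2, and its calls depended on other libraries too. Without root aoc 72 h replicate 2 edgeR called 0 of the 7 genes, and the differences were 3.40 for RAB16A, 2.50 for RAB16B, 1.90 for RAB16C, 3.68 for RAB16D, 1.34 for RAB25 and 2.52 for OsLEA3 (edgeR adjusted p = 0.247 to 0.841). The calls of all 6 genes were lost also without root WT 72 h replicate 1, 2 or 3 (0.0569 to 0.168), and those of RAB16D and OsLEA3 without root aoc 72 h replicate 3 (0.0597 for both). On the 2 groups alone 0 were called. Without the 2 root aoc libraries that stand apart 1 was called, with 5 at an unadjusted p under 0.05. With the replicate number as a block 5 were called, RAB25 being lost (5.92, edgeR adjusted p = 0.0537). The 4 leaf markers summed to 721, 3537 and 3254 CPM in the WT root libraries of 72 h and to 1141, 379 and 457 CPM in those of aoc, with 422 to 889 CPM in WT root at 0 h. The part of leaf RNA in the difference was not tested.

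**Figure D3:**
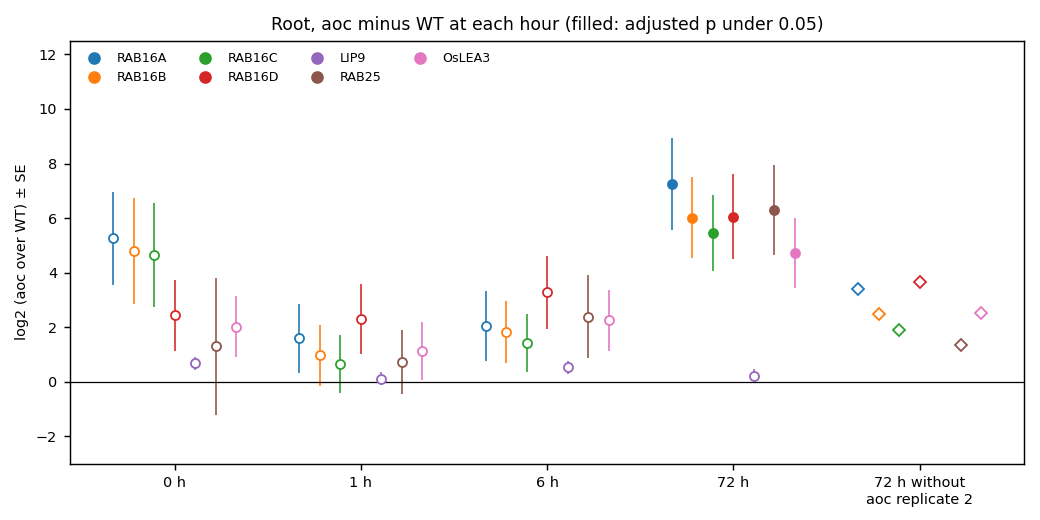
Log2 ratio of aoc over WT in root with its SE for each gene at 0, 1, 6 and 72 h, with filled points at an edgeR adjusted p under 0.05, and at the right the 72 h values after leaving out root aoc 72 h replicate 2 (open diamonds, without SE and without LIP9). At 72 h 6 genes stood between 4.73 and 7.24, and between 1.34 and 3.68 without that library.

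At the other hours in root edgeR called 0 of the 7 genes between aoc and WT. At 0 h 0.756% of all identifiers were called in either direction, and of the 7 genes 3 were called by DESeq2. At an unadjusted p under 0.05 there were 4 of the 7, against 2988 of 26195 identifiers. Without the 2 root aoc libraries that stand apart edgeR called 0, with 0 at an unadjusted p under 0.05. At 1 h the background of calls was 3.50% and at 6 h 2.65%, with 0 called by DESeq2 at either hour. At an unadjusted p under 0.05 there were 0 of the 7 at 1 h and 2 at 6 h. Of 26195 identifiers, 4628 and 3974 had such a p. At 6 h RAB16A read 58.1, 61.8 and 157 CPM in aoc against 17.3, 24 and 26.4 CPM in WT, with every aoc library higher, and the difference of 2.04 ± 1.28 was not called (edgeR adjusted p = 0.503). Without the 2 root aoc libraries that stand apart, neither of them a 6 h library, it was 2.06 and was called (edgeR adjusted p = 0.0300). In that setting RAB16A was the 1 gene called at 6 h, with all 7 at an unadjusted p under 0.05. At 1 h that setting gave 0 called, with 2 at an unadjusted p under 0.05.

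In leaf edgeR called 0 of the 7 genes between aoc and WT at any hour, against 0.679%, 4.54%, 0.489% and 2.88% of all identifiers called in either direction at the 4 hours in turn. At an unadjusted p under 0.05 there were 2, 5, 0 and 0 of the 7 genes, against 2661, 4695, 1760 and 3937 of 24317 identifiers. DESeq2 called 2, 3, 0 and 0 of the 7. Without the 2 leaf libraries that stand apart edgeR called 0 at each hour, with 0 at an unadjusted p under 0.05. LIP9 at 1 h was lower in every aoc library than in every WT library, 314 to 617 CPM against 969 to 1596 CPM. The difference of -1.33 ± 0.95 was not called (edgeR adjusted p = 0.477) but was on the 2 groups alone (-1.36, edgeR adjusted p = 0.0432). At 72 h LIP9 differed by -0.56 ± 0.94, OsLEA3 by -0.52 ± 2.26 and RAB16A by -0.20 ± 2.04 (edgeR adjusted p = 0.825, 0.941 and 0.976), SEs that leave room for differences of several fold in either direction.

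Whether the change from 0 h differed between the genotypes was tested directly, and edgeR called 0 of the 7 genes at any hour in either tissue. Of all identifiers, 0.0115%, 0.00% and 0.00% were called in root at 1, 6 and 72 h and 0.00%, 0.00411% and 0.00% in leaf. In root there were 0 at an unadjusted p under 0.05 at each hour, against 1140, 1083 and 1412 of 26195 identifiers, and 0 by DESeq2. In leaf at 1, 6 and 72 h there were 6, 1 and 3 at an unadjusted p under 0.05, against 1183, 457 and 1466 of 24317 identifiers. DESeq2 called 3, 0 and 0 of the 7 genes there. The groups behind the leaf 1 h values hold both leaf libraries that stand apart, and without these edgeR called 0 at each hour in leaf, with 0 at an unadjusted p under 0.05. Without the 2 root aoc libraries that stand apart edgeR called 0 in root, with 0, 2 and 3 at an unadjusted p under 0.05 at 1, 6 and 72 h. DESeq2 was not run without these libraries.

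Root and leaf of WT differed in their response at 72 h. The root change minus the leaf change was -4.23 ± 1.05 for LIP9, -8.69 ± 2.16 for RAB16D, -11.66 ± 3.21 for OsLEA3 and -10.23 ± 3.29 for RAB16A on the log2 scale (edgeR adjusted p = 0.00632, 0.00652, 0.0124 and 0.0302). These 4 genes were called lower by edgeR, against 8.83% of all identifiers, and DESeq2 called 6 of the 7 genes. The RAB16A call was lost in 8 of the 12 fits that each left out 1 library: root WT 0 h replicates 1 and 3, root WT 72 h replicates 1, 2 and 3, leaf WT 0 h replicates 1 and 3 and leaf WT 72 h replicate 3 (edgeR adjusted p = 0.0553 to 0.0950). At 1 h edgeR called 0, against 4.86% in either direction, and DESeq2 called 0. At an unadjusted p under 0.05 there were 0 of the 7, against 5106 of 27323 identifiers. At 6 h edgeR called 0, against 14.8%, with 0 at an unadjusted p under 0.05, against 7550 of 27323 identifiers. DESeq2 called 1, RAB16C, whose root change minus leaf change was 7.63 ± 4.09 in edgeR (adjusted p = 0.225). Root and leaf RNA were extracted with different kits, and a kit's part in levels cannot be told apart from the tissue's.

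The shares of RAB16 reads that fell on each of the 4 genes were compared between root and leaf. Among libraries with at least 100 reads of the 4 genes together (21 in root, 16 in leaf), RAB16A held 3.33% to 54.9% of these reads in root (median 32.9%) and 65.7% to 93.1% in leaf (median 84.7%). RAB16C held 0% to 54.2% in root (median 28.4%) and 0% to 13.0% in leaf (median 2.25%), and RAB16D 5% to 96.7% in root (median 25.1%) and 0.188% to 3.45% in leaf (median 0.547%). RAB16B took a similar share in both, with medians of 12.0% and 11.3%. The root and leaf ranges of RAB16A and of RAB16D did not overlap.

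In WT at 6 h, when both tissues had all 3 libraries, RAB16A held 36% ± 1.55 (SD, n = 3) of the reads in root and 84.9% ± 2.13 in leaf, and RAB16C held 40.2% ± 1.70 in root and 2.59% ± 2.04 in leaf. The exact permutation p was 0.1 for each, two-sided, which is the smallest that 3 against 3 allows, and 0.12 after Benjamini-Hochberg adjustment over 12 such tests. Leaf aoc 0 h replicate 3, with its 15983 RAB16 reads, held 85.8% RAB16A and 0.307% RAB16D, and the leaf ranges above include this library. The part of root RNA in these shares was not tested. Within WT root RAB16D held 90% and 96.7% of the reads in the 2 untreated libraries with enough reads, 5% to 15% at 1 h and 8.56% to 13.1% at 6 h.

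**Figure D4:**
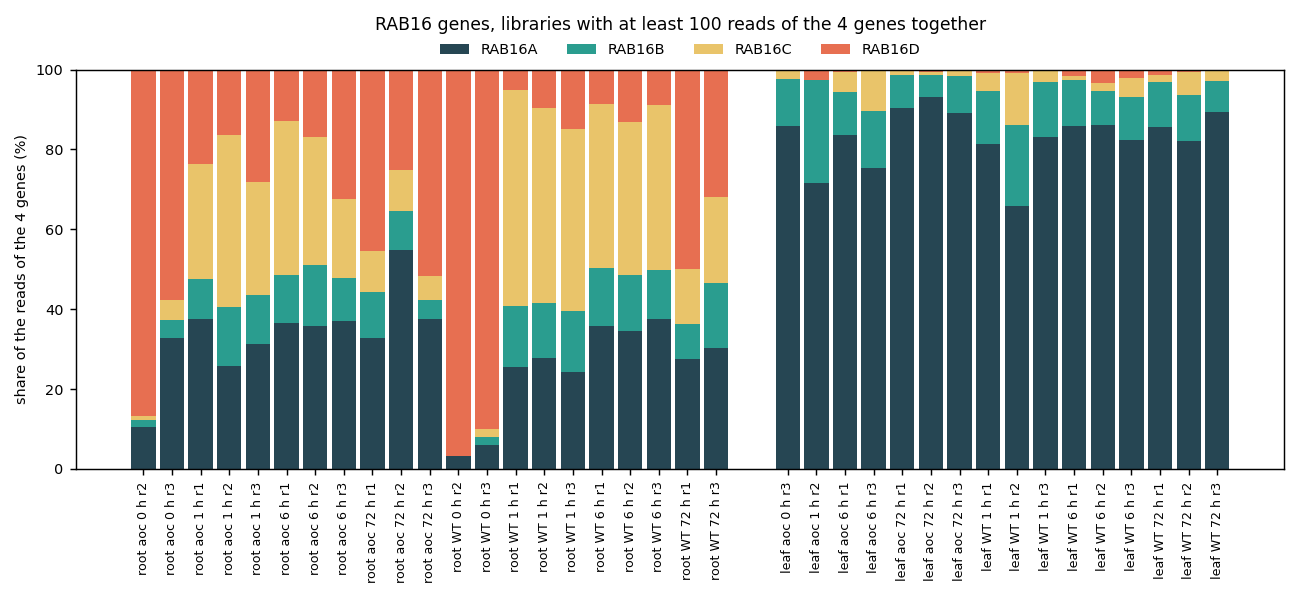
Share of the RAB16 reads that fell on each of the 4 genes, in percent, with 1 stacked bar per library, root on the left and leaf on the right (r1 to r3 are replicates). RAB16A filled 65.7% to 93.1% of each leaf bar, and in root no gene exceeded 54.9% outside the 0 h libraries.

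Across libraries, those that stand apart included, RAB16A, RAB16B and OsLEA3 moved together. Over the 24 leaf libraries the correlation of log2 levels was 0.95 for RAB16A with OsLEA3 and 0.98 for RAB16A with RAB16B, and over the 24 root libraries these were 0.88 and 0.98. In root the correlation of RAB16D was 0.93 with OsLEA3 and 0.63 with RAB16C. RAB25 had correlations of 0.66 to 0.74 in root and of 0.87 to 0.92 in leaf with the RAB16 genes and OsLEA3. LIP9 had correlations of 0.27 to 0.48 with the other genes in root and of 0.60 to 0.75 in leaf. These values describe libraries that share treatments, tissue and scaling, and similar sequences within the RAB16 group.

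**Figure D5:**
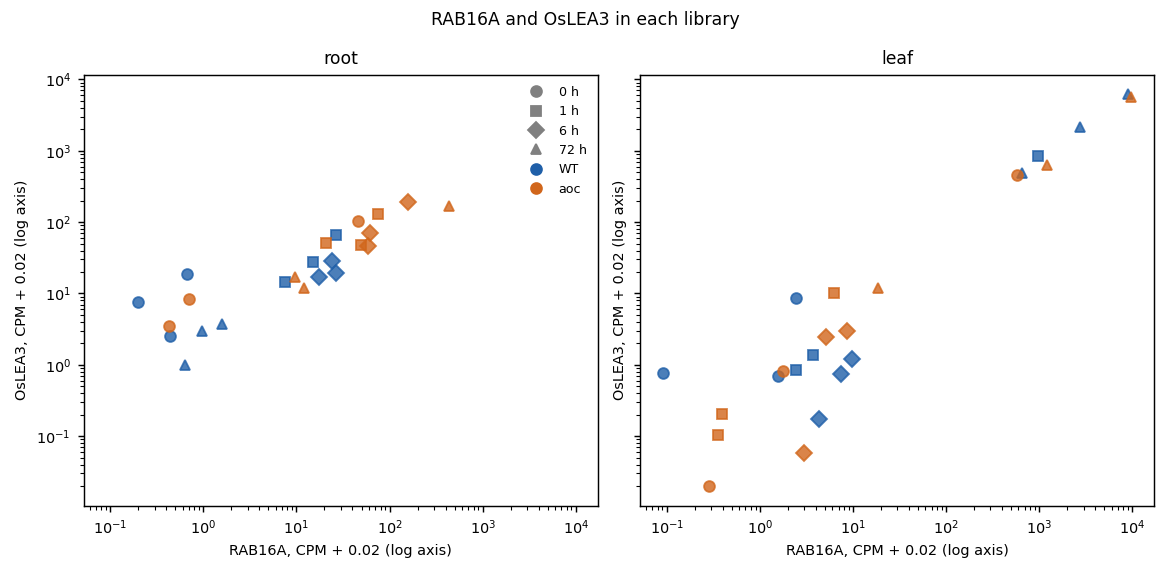
OsLEA3 against RAB16A, each as CPM plus 0.02 on a log axis, in root (left) and leaf (right), with 1 point per library, WT in blue and aoc in orange and the hour given by the symbol. In leaf the 72 h libraries other than aoc replicate 2, the high library of WT 1 h and that of aoc 0 h lie together at the upper right, all above 450 CPM for both genes.

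The identifiers whose group means over the 16 groups were most like the mean of the 7 genes, among 19379 candidates, were Os05g0151200 and Os11g0451700, with correlations of 0.988 and 0.973. Os11g0451700 read 0.0685 CPM on average in WT root at 0 h, 26.1 CPM at 1 h, 6.51 CPM at 6 h and 0.208 CPM at 72 h, and in WT leaf 0.225 CPM at 0 h and 239 CPM at 72 h. Its 6 minus 1 h difference in WT root was -1.99 ± 1.15 (edgeR adjusted p = 0.186). Os05g0151200 had no read in WT leaf at 0 h and a mean of 41.7 CPM there at 72 h. Of the members, RAB16B was most like that mean (0.97), then OsLEA3 (0.96), with LIP9 least (0.63). Each member is itself part of that mean, so these values cannot be set against those of the outside identifiers. Of 7 identifiers numbered next to or within the RAB16 group, the 1 that lies between its members had no read in any library.

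Genes of ABA, the hormone from which RAB genes take their name, were followed through 32 identifiers. These were of ABA synthesis and breakdown, clade A protein phosphatases, SnRK2 kinases and ABA-responsive transcription factors. The files do not pair these identifiers with names, and the list comes from general knowledge. In WT root 18 of 31 tested were called higher and 0 lower at 1 h, with a median log2 change of 0.98 against -0.03 over all identifiers, of which 17.5% were called higher and 16.5% lower. At 6 h 15 rose and 1 fell (median 0.76), against 13.0% and 11.9% of all identifiers. At 72 h 6 were called higher and 1 lower (median 0.18), against 9.19% and 9.73%. Of the 9 phosphatases, 8 were called higher in WT root at 1 h, with a median of 3.48. In aoc root the counts were 19 and 0, 15 and 2, and 7 and 1, against 18.1% and 16.6%, 16.7% and 16.6%, and 9.46% and 10.3% of all identifiers. In either direction, the 72 h counts made 22.6% of the list in WT and 25.8% in aoc, near the 18.9% and 19.8% of all identifiers.

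In WT leaf at 1 h 3 of 32 were called higher and 0 lower, against 0.818% and 0.461% of all identifiers. The counts were 7 and 2 at 6 h, against 15.6% and 13.6%, and 13 and 0 at 72 h, against 15.0% and 13.6%, with medians of 0.83, 0.41 and 1.23 over the 3 hours. In aoc leaf the counts were 1 and 0, 8 and 2, and 5 and 1, against 0.325% and 0.329%, 19.6% and 15.9%, and 15.7% and 14.8%. The 6 h counts made 28.1% of the list in WT leaf and 31.2% in aoc leaf, below the 29.2% and 35.6% of all identifiers called in either direction, and those of aoc leaf at 72 h made 18.8%, against 30.5%. Between aoc and WT in root, 2 were higher in aoc at 6 h and 1 at 72 h with none lower, against 1.03% and 1.85% of all identifiers called higher, and edgeR called 0 in root at 0 or 1 h and 0 in leaf. A list of 2 other LEA identifiers had 1 called higher at 1 h in WT root and 1 in aoc root, against 17.5% and 18.1% of all identifiers. At 6 and 72 h 0 were called in root. From 1 to 6 h 1 was called lower in WT root, 1 in aoc root and 1 in WT leaf, against 18.0%, 17.8% and 12.3%. In leaf 1 of the 2 was tested, with 0 called against 0 h.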

How the data were processed

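The authors deposited raw read counts per gene for 48 libraries in 1 table. The submitters' processing notes list the build IRGSP-1.0 and the tools fastp, HISAT2 and DESeq2. No source used here gives the counting tool, its strand setting or its treatment of reads with several matches. A biological replicate is 3 plants per the labels, so p-values measure the spread between such replicates.

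The quasi-likelihood F test of edgeR 4.0.16, run in R 4.3.3, was applied to the counts (TMM, low-count filter by group, robust fit), in 1 fit of 24 libraries per tissue (26195 identifiers in root, 24317 in leaf) and 1 of all 48 for differences between tissues (27323). The SE is the log2 fold change over the root of F. CPM uses TMM factors over all 48 libraries. Over 37 comparisons, 12 were changes from 0 h, 8 steps between hours, 8 aoc minus WT, 6 differences between the genotypes' changes and 3 between the WT changes of root and leaf. On simulated data for root WT 1 h minus 0 h, run on 25932 genes, 78 of 100 genes changed by 1 log2 unit and 97 of 100 changed by 2 were called, with 3 false calls. The changed genes were drawn only from those of higher mean level, so these rates do not describe genes with few reads.

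Alternatives were RLE size factors, no filter, DESeq2 1.42.0, the replicate number as a block, the compared groups alone and each library left out, where 2 libraries remain in that group and all groups share the spread. Settings without the libraries that stand apart or without leaf 72 h were chosen after seeing the data. Same-numbered libraries deviated together, with each correlation over 0.1, in 13 of 28 pairs of groups (range over all -0.16 to 0.66), and only there does the replicate number count as pairing.

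The members and lists were chosen with earlier results of these data known. Genes were named when they were members, and 2 other identifiers for their likeness. Of the 7 names, 5 were found in the RefSeq table, which follows another assembly. No library was a copy of another of its group, and libraries of different groups were not compared for this. Ratios against a group with 1 to 3 reads have exact 95% intervals, which cover counting error only, as reads carry no molecular identifiers. 3 counts in a library came to between 0.0394 and 0.0925 CPM for root, and for leaf to between 0.0759 and 0.138 CPM.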

Additional observations from a re-analysis of the deposited data

Results flagged for a closer look

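In 4 genes the WT change from 0 to 72 h differed between root and leaf by a direct edgeR test over all 48 libraries. DESeq2 called 6 genes. The root change minus the leaf change was -4.23 for LIP9, -8.69 for RAB16D, -11.66 for OsLEA3 and -10.23 for RAB16A on the log2 scale (edgeR adjusted p = 0.00632, 0.00652, 0.0124 and 0.0302). The parts of extraction kit and plant age in these differences were not tested.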

How the results depend on the processing

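Of 82 gene results, 51 were called. Over 1029 values under alternatives, 817 kept direction and side of the threshold, 144 lost a call, 64 gained 1 and 4 reversed, and the cause was not tested. RLE size factors changed the call of none of the 82, and DESeq2 lost none. The 4 reversals each followed from leaving out a library and none had been called: RAB16D in WT root at 1 h (range over single libraries left out -0.68 to 1.23), RAB16D in aoc root at 6 h (-0.20 to 4.17), RAB16A in aoc root at 72 h (-0.51 to 8.21) and LIP9 in aoc leaf at 72 h (-0.73 to 3.35). Counts of called genes, of 7, moved as follows. DESeq2 gave 4 for WT root 72 minus 6 h (1 by edgeR), 5 for aoc root at 72 h (3), 3 for aoc minus WT root at 0 h, 3 for WT leaf at 1 h, 6 for WT leaf 6 minus 1 h (2), 2 for aoc leaf at 1 h, 6 for aoc leaf at 6 h, 2 and 3 for aoc minus WT leaf at 0 and 1 h, 3 for the genotypes' changes in leaf at 1 h and 1 for root minus leaf at 6 h (0 where not given). The compared groups alone gave 4 for WT root 72 minus 6 h, 1 for aoc root at 1 h and 1 at 6 h (2 each), 0 at 72 h (3), 1 for aoc minus WT root at 6 h (0) and 0 at 72 h (6), 1 for WT leaf at 1 h and 1 at 6 h (0 each), 1 for its 6 minus 1 h (2), 0 for aoc leaf at 72 h (1) and 0 for its 72 minus 6 h (7), 1 for aoc minus WT leaf at 1 h and 2 for root minus leaf at 6 h (0 each). Without a filter the count was 1 for aoc root at 72 h (3), 1 for WT leaf 6 minus 1 h (2) and 0 for aoc leaf 6 minus 1 h (1). The replicate block gave 4 for WT root 72 minus 6 h (1), 1 for WT leaf at 1 h (0) and 4 for aoc leaf at 72 h (1), and moved no other count by over 1.5 times. In the first 2 of these the numbers did not pair the libraries. Over all 28 pairs of groups, the libraries correlated best with their own number in 11.

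Settings chosen after seeing the data moved these counts. Without the 2 root aoc libraries that stand apart they were 1 for WT root at 72 h (0), 4 for its 72 minus 6 h (1), 7 for aoc root at 1 h and 6 at 6 h (2 each), 4 for its 72 minus 6 h (0), and 1 for aoc minus WT at 6 h (0) and 1 at 72 h (6). Without the 2 leaf libraries they were 1 for WT leaf 6 minus 1 h (2) and 7 for aoc leaf at 72 h (1). Without the leaf 72 h libraries they were 1 for WT leaf at 1 h (0), 4 for its 6 minus 1 h (2) and 2 for aoc leaf at 6 h (0), and without both kinds 1 for WT leaf at 1 h, 1 for its 6 minus 1 h, 1 for aoc leaf at 1 h and 1 for aoc minus WT leaf at 1 h. Leaving out single libraries gave 0 to 1 for WT root 72 minus 6 h, 2 to 5, 1 to 5 and 0 to 6 for aoc root at 1, 6 and 72 h, 0 to 1 for its 72 minus 6 h, 0 to 6 for aoc minus WT root at 72 h, 3 to 7 for WT leaf at 72 h, 1 to 3 for its 6 minus 1 h and 3 to 7 for its 72 minus 6 h, 0 to 1 and 0 to 7 for aoc leaf at 6 and 72 h, 0 to 1 for its 6 minus 1 h and 1 to 7 for its 72 minus 6 h. Depth limits RAB25 in root and RAB16D in leaf, where groups hold 1 to 3 reads and a fold cannot be placed closely.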
